A study of Rattus norvegicus with 9 samples.

Results

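The 51 genes described here carry out DNA replication and mitosis or control the entry of a cell into these phases. The members are a list of symbols given by name. All 51 were among the 17588 genes of the deposited table, and all 51 passed the filter on low values, reaching 1 FPKM in 3 or more of the 9 libraries, which left 11732 genes for testing. FPKM is a fragment count corrected for the length of the transcript and the size of the library.

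The libraries were made from messenger RNA of primary rat chondrocytes, the cells that build and keep cartilage matrix, taken from animals whose genotype is given as WT. The control group was kept in routine culture, the IL-1β group received interleukin-1β, a cytokine of joint inflammation that drives cartilage cells towards matrix breakdown, and the co-culture group received IL-1β and was then cultured with dermal fibroblasts. In the co-culture a transwell membrane lay between the chondrocytes below and the fibroblasts above, so that the cells shared medium but did not touch. Each group had 3 libraries, and no group was co-cultured without IL-1β. The strain, age and number of animals, the dose of IL-1β and the times were not found in the labels. The labels do not tie the replicates to separate rats or dishes, so each p-value reflects only how much these libraries varied, and that variation may be technical.

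A dividing cell first licenses its replication origins by loading the MCM helicase with the help of ORC, Cdc6 and Cdt1, then copies its DNA in S phase, and later segregates the copies in mitosis. Cyclins and their kinases order these steps. E2F factors drive many genes of the G1 to S transition, whereas FOXM1, B-MYB and the DREAM complex act on genes of G2 and mitosis, and the anaphase-promoting complex ends mitosis by marking cyclin B and securin for destruction. Chondrocytes divide little in adult cartilage and more readily when they are isolated and grown in a dish.

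The labelled cell type was checked against markers. The 9 chondrocyte markers found in the table, Col2a1 and Acan among them, had summed levels of 1904 to 1988 FPKM in the control libraries, 439 to 459 with IL-1β and 619 to 675 in co-culture. The 8 skeletal muscle markers, Myog and Acta1 among them, had summed levels of 156 to 162 FPKM in control, 354 to 375 with IL-1β and 344 to 382 in co-culture. All 9 chondrocyte markers fell and all 8 muscle markers rose with IL-1β. Muscle precursors can divide, and the part of those cells in the results on the members was not tested. Of 10 dermal fibroblast markers, Dpp4 stayed at or below 0.11 FPKM in every library, Clec3b at or below 0.36 and Pi16 at or below 1.05, while the summed level was 299 to 308 in control, 1343 to 1401 with IL-1β and 756 to 861 in co-culture. Of the 6 fibroblast markers that passed the filter, Dcn, Lum, Prrx1, Twist2 and Pdgfra were higher and Dpt was lower with IL-1β than in control, and in co-culture against IL-1β alone 3 were lower and none was higher. Prrx1 averaged 100.5 FPKM in control, 171 with IL-1β and 152 in co-culture, and Lum 87.8, 765 and 359. The part of fibroblast-like cells in the results on the members was not tested. Leukocyte markers summed to 19.2 to 26.1 FPKM over all libraries, endothelial markers to 8.52 to 11.3 and keratinocyte markers to 1.19 to 2.33. Most of the leukocyte sum was Cd14, which averaged 12.02 FPKM in control, 15.95 with IL-1β and 13.91 in co-culture. Ptprc and Csf1r stayed under 1 FPKM in every library. Most of the endothelial sum was Egfl7, at 9.69, 8.24 and 7.96, and the other 5 endothelial markers stayed under 1 FPKM. FPKM values summed to 771058 to 782435 in the control libraries, 796262 to 832248 in the IL-1β libraries and 809839 to 811665 in the co-culture libraries, so the control libraries had the lowest sums. Within a group, the libraries had a Pearson's r of 0.994 to 0.995 across genes, which are not independent replicates. The absolute depth is unknown.

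All members were well above the filter. In the control group the mean FPKM ran from 7.30 for E2f8, a repressive E2F factor, to 370 for Rrm2, the regulatory subunit of ribonucleotide reductase, with a median of 57.02 over the 51 genes. Cdk1, the kinase that drives entry into mitosis, stood at 304 ± 7.22 FPKM (mean ± SD, n = 3), and the proliferation marker Mki67 at 43.95 ± 0.872. The median coefficient of variation of the members was 2.26% in the control, 2.93% in the IL-1β and 4.06% in the co-culture libraries.

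The promoters of 4 members are shown because members of the same role moved together and their promoters carried different motifs. Cdc20 and Prc1 are examples of the mitosis genes that were lower with IL-1β, and Mcm2 and Mcm6 of the helicase genes that were higher. The rise of Mcm2 was among the less stable ones, as given below. The sequences are the 250 bases before the annotated start, from RefSeq on the build GRCr8, read 5′ to 3′ on the gene's own strand. Capitals mark 3 motifs: the cell cycle homology region or CHR (TTTGAA or TTCGAA), bound by DREAM and by B-MYB with FOXM1, the NF-Y box (CCAAT), and the E2F motif (TTTCCCGC, TTTCGCGC, TTTGCCGC or TTTGGCGC), each searched on both strands.
Cdc20 (chr5:137255800-137256049, minus strand): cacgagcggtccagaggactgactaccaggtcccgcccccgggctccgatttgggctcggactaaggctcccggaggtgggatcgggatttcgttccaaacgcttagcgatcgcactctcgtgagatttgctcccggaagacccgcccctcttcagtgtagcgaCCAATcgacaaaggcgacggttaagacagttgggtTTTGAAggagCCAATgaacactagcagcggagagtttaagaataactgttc
Prc1 (chr1:143659231-143659480, plus strand): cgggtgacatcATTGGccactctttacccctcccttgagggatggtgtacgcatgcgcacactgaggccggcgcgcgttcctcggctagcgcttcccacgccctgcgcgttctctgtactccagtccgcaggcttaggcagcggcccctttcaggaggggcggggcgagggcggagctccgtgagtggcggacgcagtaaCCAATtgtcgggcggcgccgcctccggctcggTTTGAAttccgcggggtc
Mcm2 (chr4:122918095-122918344, minus strand): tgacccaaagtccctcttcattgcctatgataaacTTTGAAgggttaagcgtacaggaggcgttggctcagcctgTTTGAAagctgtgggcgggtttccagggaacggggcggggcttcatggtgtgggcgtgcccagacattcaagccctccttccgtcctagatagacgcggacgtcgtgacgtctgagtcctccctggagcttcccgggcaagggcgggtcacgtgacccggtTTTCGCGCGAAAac
Mcm6 (chr13:42404353-42404602, minus strand): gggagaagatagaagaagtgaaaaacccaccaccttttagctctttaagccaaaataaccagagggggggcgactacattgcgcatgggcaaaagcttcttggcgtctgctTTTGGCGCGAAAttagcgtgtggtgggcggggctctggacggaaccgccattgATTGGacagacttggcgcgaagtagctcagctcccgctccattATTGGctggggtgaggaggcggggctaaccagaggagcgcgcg

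In Cdc20 a CHR begins 51 bases before the start, between an NF-Y box at 86 bases and another at 41 bases. Prc1 has a CHR at 18 bases and an NF-Y box at 50 bases before the start. Mcm2 and Mcm6 each hold 1 E2F match on each strand, with the matches overlapping in a stretch that begins 14 bases before the start in Mcm2 and 139 bases before it in Mcm6. Mcm2 also has CHR matches, at 215 and 175 bases before its start, farther from it than those of Cdc20 and Prc1.

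The same split was seen over the members with a promoter entry, which were 37 of the 51. In a window from 250 bases before to 50 after the start, 15 of 22 mitosis members (68.2%) held a CHR, against 3 of 12 replication members (25%) and 13.5% of the 9327 tested genes with a promoter. An E2F motif was found in 8 of the 12 replication members (66.7%), 1 of the 22 mitosis members (4.55%), which was Cdk1, and 4.39% of all. The NF-Y box was found in 18 of 22 mitosis members (81.8%), 8 of 12 replication members (66.7%) and 38.5% of all. Within the 100 bases before the start, a CHR began in 10 of 22 mitosis members (45.5%) and 3.81% of all genes, and an E2F motif in 6 of 12 replication members (50%) and 1.78% of all. Grouped by the result with IL-1β instead, a CHR was found in 12 of the 18 lower members with an entry and 4 of the 13 higher ones, and an E2F motif in 1 and 7 of them. Ccne1, which had the largest rise with IL-1β, Aurka and Bub1, which fell, and Kif2c, which was not called, held none of the 3 motifs. Pcna, Cdk2, Gins2, Pttg1, Rrm1 and Ccne1 rose without an E2F match. Kif11, Kif20a, Ccnb1, Cenpe, Bub1 and Aurka fell with neither TTTGAA nor TTCGAA in the window, and no other spelling of the CHR was searched. Mcm5, with 3 E2F matches, was not called with IL-1β. These matches describe letters in a window and do not show that a factor was bound.

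**Figure D1:**
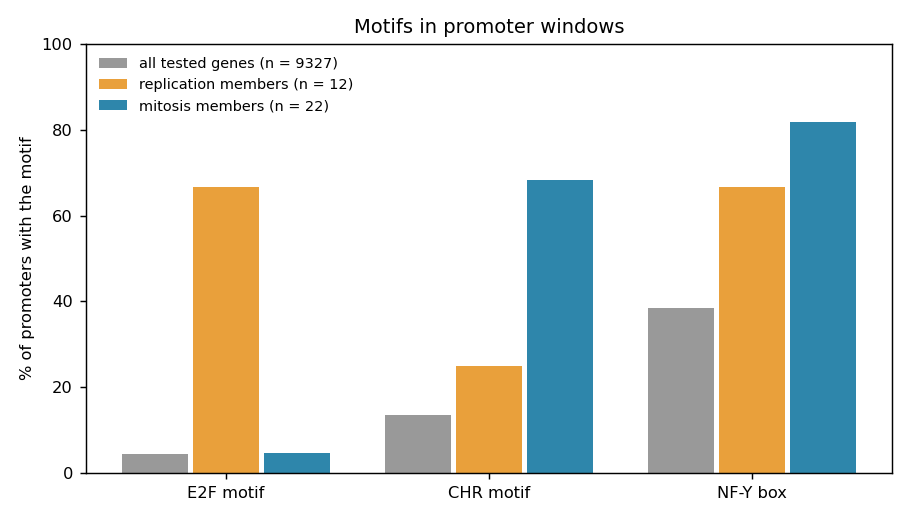
Share of promoters (vertical axis, %) that hold an E2F motif, a CHR or an NF-Y box within 250 bases before to 50 after the start, for all 9327 tested genes with an entry (grey), 12 replication members (orange) and 22 mitosis members (blue). The E2F motif is most frequent among replication members (66.7%) and the CHR among mitosis members (68.2%).

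With IL-1β, most mitosis members fell and, on the values without rescaling, most replication members were higher than in control. Replication genes outside the members, given below, were called higher at a share near that of all tested genes. Of the 51 members, 24 were lower and 16 higher at an adjusted p under 0.05 (limma with Benjamini-Hochberg adjustment over all 11732 genes), and 11 did not pass. Among all tested genes 46.7% were called, 20.2% lower and 26.5% higher. The lower calls were 21 of the 26 mitosis members, with the transcription factor Foxm1, the cyclin Ccnd2 and Rrm2. The higher calls were 12 of the 16 replication members, with Ccne1, Ccne2, Cdk2 and securin (Pttg1). The median log2 difference, on the log2(FPKM + 1) scale used for all log2 differences here, was -0.25 over the mitosis members, 0.16 over the replication members and 0.023 over all tested genes. Each called member's 3 IL-1β libraries lay all on 1 side of its 3 control libraries. Over all tested genes, 25% had all 3 IL-1β libraries below and 31.3% all 3 above the control libraries. From bulk libraries, fewer cells in a phase and less RNA per cell cannot be told apart.

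**Figure D2:**
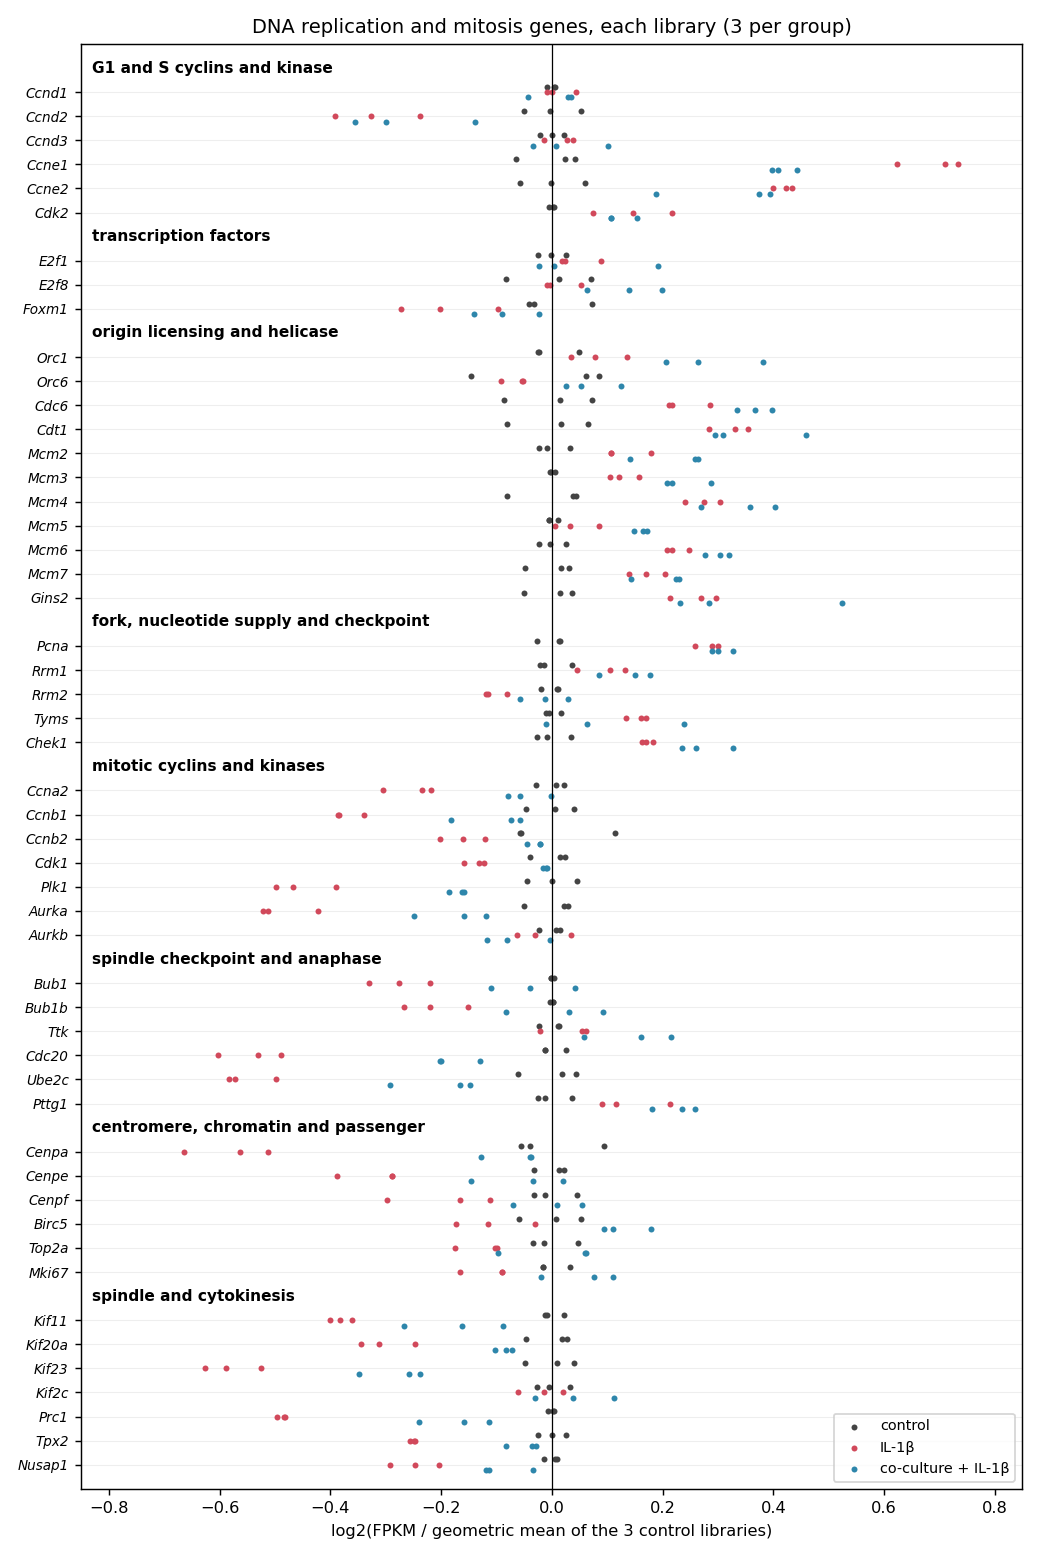
Each member (rows, grouped by role) in each of the 9 libraries, as log2 of FPKM over the geometric mean of the 3 control libraries (horizontal axis); 1 point is 1 library. IL-1β points of most mitosis genes lie left of the control points, down to Kif23, Cenpa, Cdc20 and Ube2c, and those of most replication genes lie right of them. The co-culture points of most mitosis genes lie between the other groups or near control, and those of Pttg1, Birc5 and Ttk lie right of control.

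Because the control libraries had the lowest FPKM sums, the counts were also taken after rescaling. With libraries brought to a common sum, 25 members were lower and 8 higher (3188 and 2249 of all genes). With median-of-ratios scaling they were 25 and 13 (2732 and 2723 of all genes), and with quantile normalization 25 and 9 (3332 and 2291). The lower calls thus did not shrink under any of these scalings and the higher calls did. Multiplying a library by a constant, as a common sum and median-of-ratios scaling do, cannot move a difference between genes within that library, whereas quantile normalization can. The median over the replication members minus that over the mitosis members, each as log2 of FPKM over the geometric mean of the control libraries and without rescaling, was 0.39 to 0.47 in the 3 IL-1β libraries and -0.0040 to 0.010 in the control libraries.

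Among the cyclins and kinase of G1 and S phase, 3 of 6 were higher and 1 was lower with IL-1β. Ccne1, the cyclin that partners Cdk2 at the start of S phase, was at 25.6, 24.02 and 25.9 FPKM in the control libraries, 41.1, 38.7 and 41.8 with IL-1β and 33.4, 34.2 and 33.1 in co-culture. The 3 groups did not overlap, with IL-1β highest and co-culture in between. Ccne1 rose with IL-1β by 0.67 (SE 0.04) to 1.61 times control (adjusted p = 4.83e-07), the largest rise among the members. Its paralog Ccne2 was at 34.01, 35.4 and 36.9 FPKM in control, 47.8, 46.7 and 47.5 with IL-1β and 40.3, 45.9 and 46.5 in co-culture, a rise of 0.41 (SE 0.053) with IL-1β (adjusted p = 0.000142). In Ccne2 the IL-1β libraries lay above all others and the co-culture libraries above control.

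D-type cyclins, which carry growth signals to Cdk4 and Cdk6, did not move together. Ccnd2 was at 31.9, 30.6 and 29.7 FPKM in control, 24.5, 26.04 and 23.4 with IL-1β and 23.99, 27.9 and 24.9 in co-culture, and fell by 0.31 with IL-1β (SE 0.059, adjusted p = 0.00186). Both other groups lay below its control libraries and overlapped each other. Ccnd1, the most abundant cyclin among the members, was at 222, 222 and 220.1 FPKM in control, 220.2, 228 and 222 with IL-1β and 227, 226 and 215 in co-culture, with overlapping groups. Its log2 difference was 0.012 (SE 0.028) with IL-1β, between -0.054 and 0.022 over the alternatives (adjusted p = 0.76). Ccnd3 was at 80.1, 82.5 and 81.4 FPKM in control, 82.9, 83.6 and 80.5 with IL-1β and 87.2, 81.8 and 79.4 in co-culture, again overlapping. The kinase gene Cdk2 stood at 30.4 ± 0.11 FPKM in control and 33.6 ± 1.66 with IL-1β (adjusted p = 0.0123), a call that ended with a common sum (0.22) and with quantile normalization (0.079).

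Of the transcription factors, Foxm1, which drives genes of G2 and mitosis, was at 19.4, 19.5 and 20.96 FPKM in control, 16.5, 17.3 and 18.6 with IL-1β and 18.1, 18.7 and 19.6 in co-culture. It fell by 0.18 with IL-1β (SE 0.053, adjusted p = 0.0183), and the call ended without control replicate 3 (adjusted p = 0.0703), IL-1β replicate 1 (0.0684) or IL-1β replicate 2 (0.051). E2f1, an activating E2F, had overlapping groups at 25.9 ± 0.456 FPKM in control and 26.7 ± 0.732 with IL-1β, as did E2f8 at 7.30 ± 0.388 and 7.37 ± 0.177. The median of the 3 factors, 0.012, changed sign under all 3 scalings (-0.046, -0.013 and -0.051).

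Genes of origin licensing and the helicase were higher in 8 of 11 cases and lower in none with IL-1β. Under the other scalings 5, 7 and 5 of the 11 were higher and none lower. Cdt1, which loads the helicase at origins, was at 20.1, 22.2 and 21.5 FPKM in control, 25.8, 27.2 and 26.7 with IL-1β and 29.2, 26.03 and 26.3 in co-culture, and rose by 0.31 (SE 0.052) with IL-1β (adjusted p = 0.000822). The helicase subunit Mcm6, whose promoter is printed above, was at 106, 103 and 102 FPKM in control, 120.4, 123 and 119.7 with IL-1β and 126, 128 and 129 in co-culture, and rose by 0.22 (SE 0.026) (adjusted p = 6.29e-05). For both genes every library with IL-1β, co-cultured or not, lay above every control library. Mcm4 rose from 73.1 ± 3.48 to 88.2 ± 1.96 FPKM and Mcm7 from 108 ± 3.14 to 122 ± 2.72. Cdc6, the loading partner of Cdt1, rose from 22.1 ± 1.22 to 26.03 ± 0.752.

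The smaller rises in this role were less stable. Mcm2, whose promoter is also printed above, was at 57.02 ± 1.14 FPKM in control and 62.5 ± 1.84 with IL-1β (adjusted p = 0.0212). Its call ended under all 3 scalings (adjusted p 0.242, 0.058 and 0.086) and without control replicate 1 (0.0598), control replicate 3 (0.068) or IL-1β replicate 3 (0.0808). Mcm3, at 76.5 ± 0.265 and 83.6 ± 1.54, lost its call with a common sum (adjusted p = 0.182) and with quantile normalization (0.235). Gins2, a subunit of the GINS complex that activates the helicase, was at 11.5 ± 0.359 and 13.7 ± 0.403, with the call lost in the same scalings (0.0519 and 0.0548) and without control replicate 2 (0.0517). Mcm5 and the origin recognition subunits Orc1 and Orc6 did not pass, with log2 differences of 0.04, 0.077 and -0.064. With a common sum the difference of Mcm5 was -0.025.

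Of the 5 genes of the replication fork, nucleotide supply and the S-phase checkpoint, 4 were higher and 1 lower with IL-1β. Under the other scalings the higher calls were 1, 2 and 2 and the lower call stayed at 1. Pcna, the sliding clamp of the replicative polymerases, was at 247, 247 and 240.3 FPKM in control, 293, 301 and 299 with IL-1β and 301, 299 and 307 in co-culture. All 6 libraries given IL-1β lay above control, a rise of 0.28 (SE 0.024) with IL-1β alone (adjusted p = 7.26e-06). The checkpoint kinase Chek1 rose from 25.98 ± 0.577 to 29.3 ± 0.205 FPKM (adjusted p = 0.0028), a call that ended with a common sum (0.0526). Thymidylate synthase (Tyms) stood at 35.7 ± 0.378 and 39.8 ± 0.511 (adjusted p = 0.0417), and its call ended in 13 of 18 alternatives, among them leaving out any 1 of the control and IL-1β libraries (0.0709 to 0.101) or co-culture replicate 3 (0.0519). The subunits of ribonucleotide reductase differed in direction. Rrm1 stood at 146 ± 3.31 and 156 ± 4.82 (adjusted p = 0.0467), a call lost in 11 of 18 alternatives, including those without control replicate 2 (0.13), control replicate 3 (0.122), IL-1β replicate 1 (0.112), IL-1β replicate 3 (0.154) or co-culture replicate 2 (0.0612). Rrm2 fell from 369.6 ± 4.20 to 343 ± 5.03 (adjusted p = 0.0104) and kept its call in all 18.

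The mitotic cyclins and kinases were lower in 6 of 7 cases with IL-1β and higher in none, under each of the 4 scalings. Aurka, the kinase of centrosome maturation and spindle assembly, was at 55.8, 58.7 and 58.95 FPKM in control, 40.5, 40.2 and 43.1 with IL-1β and 48.6, 53.2 and 51.8 in co-culture. Plk1, the kinase that acts from mitotic entry to cytokinesis, was at 96.8, 93.9 and 90.9 FPKM in control, 66.4, 71.6 and 67.8 with IL-1β and 83.9, 84.05 and 82.5 in co-culture. The groups did not overlap in either gene, with IL-1β lowest and co-culture between IL-1β and control. Aurka fell by 0.48 with IL-1β (SE 0.043, adjusted p = 1.03e-05) and Plk1 by 0.45 (SE 0.035, adjusted p = 3.57e-06). Cyclin B1 (Ccnb1), the main partner of Cdk1, was at 78.8, 76.95 and 74.2 FPKM in control, 58.7, 58.6 and 60.6 with IL-1β and 67.6, 73.7 and 72.8 in co-culture, and fell to 0.774 times control (adjusted p = 3.26e-05). Cyclin A2 (Ccna2), which works in S phase and early mitosis, was at 146, 147 and 142 FPKM in control, 117, 123 and 125 with IL-1β and 137, 145 and 139 in co-culture, a ratio of 0.839 to control (adjusted p = 0.000134). Cdk1 itself fell less, to 276 ± 3.63 FPKM or 0.909 times control. Ccnb2 stood at 45.1 ± 3.13 and 40.3 ± 1.14, and its call ended without IL-1β replicate 2 (adjusted p = 0.0643). Aurkb, the kinase of the chromosomal passenger complex, was the gene of this role that did not pass, at 76.8 ± 1.07 and 75.8 ± 2.58 FPKM.

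Spindle checkpoint and anaphase genes were lower in 4 of 6 cases with IL-1β. Cdc20, which activates the anaphase-promoting complex, was at 176, 171 and 171 FPKM in control, 119, 114 and 123 with IL-1β and 158, 150.3 and 150.1 in co-culture. Ube2c, the enzyme that supplies ubiquitin to that complex, was at 283, 268 and 288 FPKM in control, 198, 188 and 187 with IL-1β and 252, 249 and 228 in co-culture. In both genes the 3 groups were separate and co-culture lay in between. Cdc20 fell by 0.54 with IL-1β (SE 0.034) to 0.688 times control (adjusted p = 7.47e-07) and Ube2c by 0.55 (SE 0.044) to 0.682 times control (adjusted p = 4.39e-06). The checkpoint kinase Bub1 was at 34.97, 34.9 and 34.8 FPKM in control, 27.7, 28.8 and 29.9 with IL-1β and 32.3, 33.96 and 35.9 in co-culture, and fell by 0.27 (adjusted p = 0.000589). Its relative Bub1b, at 26.7, 26.6 and 26.7 FPKM in control, 22.2, 22.9 and 24.01 with IL-1β and 25.2, 28.4 and 27.2 in co-culture, fell by 0.20 (adjusted p = 0.00533). For both, IL-1β libraries lay below all others and co-culture libraries overlapped control. The checkpoint kinase Ttk did not pass with IL-1β, at 29.6 ± 0.411 and 30.3 ± 0.964 FPKM. Pttg1, the securin that holds separase inactive until anaphase, was higher, at 103 ± 2.36 and 114 ± 5.21 (adjusted p = 0.0124), the only mitosis member called higher, and that call ended with a common sum (0.0962) and with quantile normalization (0.123).

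Of the 6 genes of the centromere, mitotic chromatin and the passenger complex, 5 were lower with IL-1β. Cenpa, the histone variant that marks the centromere, was at 28.4, 28.7 and 31.5 FPKM in control, 19.96, 18.6 and 20.7 with IL-1β and 28.7, 27 and 28.8 in co-culture. It fell by 0.56 with IL-1β (SE 0.052, adjusted p = 1.37e-05), and its co-culture libraries overlapped control. The kinetochore motor Cenpe was at 15.4, 15.96 and 15.9 FPKM in control, 12.01, 12.9 and 12.9 with IL-1β and 14.2, 15.4 and 15.9 in co-culture, and fell by 0.30 (adjusted p = 0.000672). Mki67, widely stained as a proliferation marker, was at 43.4, 43.5 and 44.96 FPKM in control, 39.2, 41.3 and 41.3 with IL-1β and 43.4, 46.3 and 47.4 in co-culture. Its difference of -0.11 (SE 0.04) (adjusted p = 0.0399) was the smallest called fall among the mitosis members. The call ended in 8 of 18 alternatives, among them those without any 1 of the control and IL-1β libraries (0.0565 to 0.135) and without co-culture replicate 2 (0.0515), which enters only the shared spread. Topoisomerase Top2a, which untangles sister chromatids, stood at 85.8 ± 2.55 and 78.6 ± 2.29, and its call ended in 12 of 18, again without any 1 of those 6 libraries (0.0604 to 0.154) and without co-culture replicate 2 (0.05001) or 3 (0.05007). Cenpf, a kinetochore protein, lost its call without control replicate 2 (0.0734) or IL-1β replicate 1 (0.0771). Birc5, or survivin, of the passenger complex, was at 73.4, 76.8 and 79.3 FPKM in control, 74.9, 70.5 and 67.8 with IL-1β and 82.6, 81.6 and 86.5 in co-culture, and did not pass with IL-1β (adjusted p = 0.0729), although it did in 5 of 18 alternatives.

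Spindle and cytokinesis genes were lower in 6 of 7 cases with IL-1β and higher in none, under all 4 scalings. Kif23, the motor of the centralspindlin complex, was at 57.05, 53.6 and 55.9 FPKM in control, 35.96, 36.9 and 38.6 with IL-1β and 43.6, 47.03 and 46.4 in co-culture. Prc1, which bundles the midzone microtubules on which that motor works, was at 150.0, 149.8 and 149 FPKM in control, 106, 107 and 107 with IL-1β and 127, 134 and 138 in co-culture. The 3 groups were separate in both genes, in the order IL-1β, co-culture, control. Kif23 fell by 0.57 with IL-1β (SE 0.041) to 0.669 times control (adjusted p = 1.84e-06), the largest fall among the members, and Prc1 by 0.48 (SE 0.032, adjusted p = 9.62e-07). Kif11, the motor that pushes spindle poles apart, was at 40.1, 39.3 and 39.1 FPKM in control, 29.9, 30.3 and 30.8 with IL-1β and 32.8, 35.3 and 37.2 in co-culture, and fell by 0.37 (adjusted p = 5.93e-05). Kif20a, a motor of cytokinesis, was at 99.6, 98.95 and 94.6 FPKM in control, 76.9, 78.7 and 82.3 with IL-1β and 92.3, 91 and 92.95 in co-culture, and fell by 0.30 (adjusted p = 4.14e-05). Both kept their calls in all 18 alternatives, as did the spindle assembly factor Tpx2, from 109.5 ± 1.93 to 92.02 ± 0.34, and the microtubule binder Nusap1, from 65.5 ± 0.561 to 55.2 ± 1.69. The microtubule depolymerase Kif2c did not pass, at 35.9 ± 0.745 and 35.5 ± 1.00 FPKM.

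**Figure D3:**
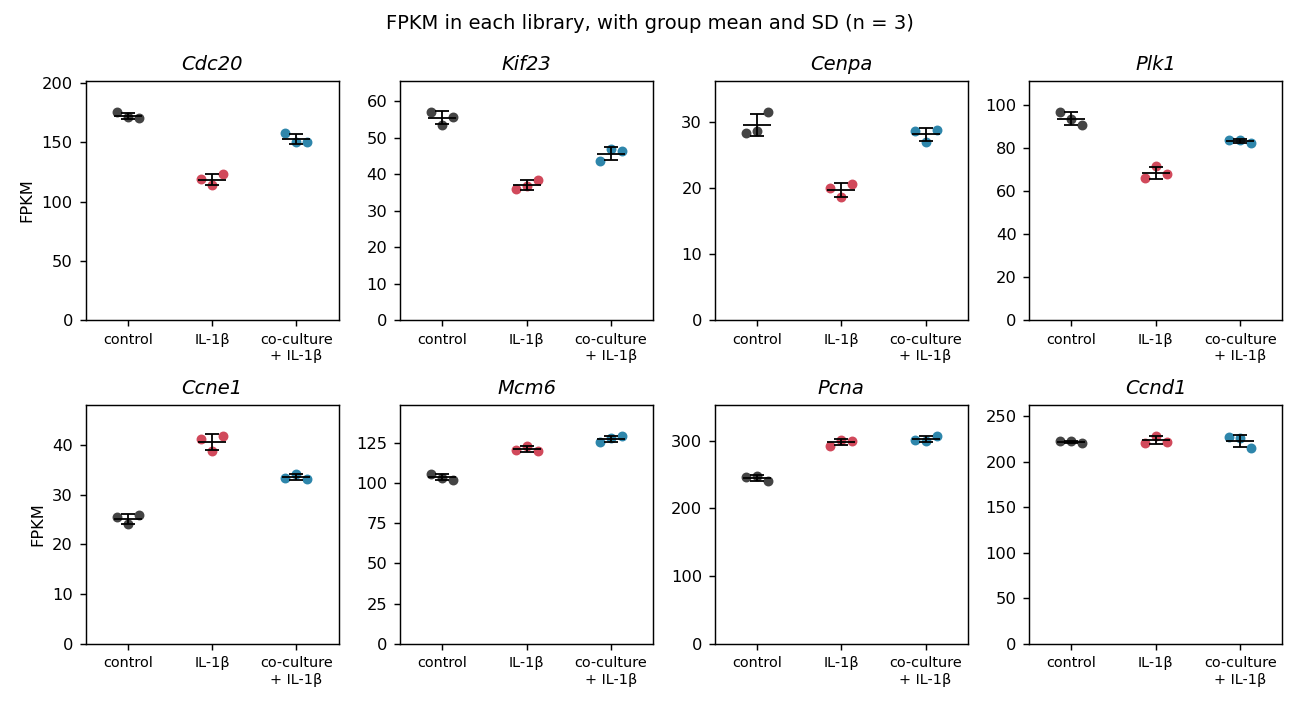
FPKM (vertical axes, from 0) of 8 members in the control, IL-1β and co-culture with IL-1β groups; points are libraries, bars the mean and SD of 3. Cdc20, Kif23, Cenpa and Plk1 are lowest with IL-1β, Mcm6 and Pcna are higher than control in both groups given IL-1β, Ccne1 is highest with IL-1β alone and Ccnd1 overlaps in all 3 groups.

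The second comparison set the co-culture group against IL-1β alone. It shares the IL-1β libraries with the first, so their results are not independent. Most mitosis members were higher in co-culture. Of the 51 members, 24 were higher, 1 was lower and 26 did not pass, where 22% of all tested genes were called, 11.9% higher and 10.1% lower. All 20 mitosis members that passed were higher, of 26, with 4 replication members, and the lower one was Ccne1. The median log2 difference was 0.21 over the mitosis members, 0.085 over the replication members and 0.016 over all tested genes. In 31 members the 3 co-culture libraries lay all above the 3 IL-1β libraries, as they did in 21.2% of all tested genes, and in 2 all below, against 16.5%. With a common sum the counts were 23 and 1 (1275 and 1089 of all genes). With median-of-ratios scaling they were 22 and 1 (1156 and 1294 of all genes), and with quantile normalization 23 and 1 (1453 and 1157).

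The log2 differences of the called mitosis genes ran from 0.13 for Cdk1 to 0.49 for Cenpa. Cenpa rose from 19.8 ± 1.05 to 28.2 ± 1.01 FPKM in co-culture, 1.43 times the IL-1β level, a log2 difference of 0.49 (SE 0.052) (adjusted p = 0.000141). Cdc20 rose by 0.36 (SE 0.034) (adjusted p = 6.61e-05), to 1.29 times, and Ube2c by 0.35 (SE 0.044) (adjusted p = 0.000442), to 1.27 times. Prc1 rose by 0.31, Aurka by 0.30, Kif23 by 0.29 and Plk1 by 0.28, with adjusted p from 0.000102 for Prc1 to 0.000849 for Aurka. Each of these genes except Cenpa was still called lower than control in co-culture. Smaller rises were those of Ccnb1 (0.26), Cenpe (0.25), Bub1 (0.23), Bub1b (0.22), Kif20a (0.21) and Ccna2 (0.20). Birc5 rose from 71.1 ± 3.56 to 83.6 ± 2.62 FPKM (adjusted p = 0.00436), although it had not been called with IL-1β. Cdk1 rose from 276 ± 3.63 to 302 ± 0.835 FPKM, with 304 ± 7.22 in control.

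Mki67 rose from 40.6 ± 1.22 to 45.7 ± 2.11 FPKM (adjusted p = 0.0141), a call that ended without IL-1β replicate 1 (0.053) or co-culture replicate 2 (0.0503). Cenpf, from 10.8 ± 0.709 to 12.3 ± 0.536, lost its call in 11 of 18 alternatives, among them those without IL-1β replicate 1 (0.132), IL-1β replicate 3 (0.0783), co-culture replicate 2 (0.11) or co-culture replicate 3 (0.13), and each of those without 1 control library (0.0549 to 0.0616). The mitosis members that did not pass were Ccnb2, Top2a, Ttk, Pttg1, Aurkb and Kif2c. Of these, Aurkb had a negative difference, -0.048, and the others ran from 0.057 to 0.13.

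Of the 16 replication members 4 were higher in co-culture than with IL-1β and none was lower. Mcm3 rose from 83.6 ± 1.54 to 90.2 ± 2.75 FPKM (adjusted p = 0.0245), Mcm5 from 67.3 ± 1.87 to 73.2 ± 0.604 (adjusted p = 0.0126) and Orc1 from 15.3 ± 0.537 to 17.6 ± 1.10 (adjusted p = 0.0229). Rrm2 rose from 343 ± 5.03 to 366 ± 11.1 (adjusted p = 0.0393). None of the 4 calls held throughout. That of Mcm5 ended without IL-1β replicate 2 (0.0505), that of Orc1 without IL-1β replicate 1 (0.0609), IL-1β replicate 2 (0.0789) or co-culture replicate 2 (0.0755), and that of Mcm3 without IL-1β replicate 1 (0.0691), IL-1β replicate 3 (0.085) or co-culture replicate 3 (0.0754). Rrm2 lost its call in 13 of 18 alternatives (adjusted p up to 0.141), among them each of those without 1 control library (0.0532 to 0.0602), IL-1β replicate 2 (0.102) or 3 (0.117), or co-culture replicate 2 (0.136) or 3 (0.0876). Pcna had a log2 difference of 0.023 (SE 0.024), Mcm7 of 0.028 (SE 0.034) and Cdt1 of 0.03 (SE 0.052), none of them called.

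Ccne1, the 1 member called lower in co-culture than with IL-1β alone, fell by 0.27 (SE 0.04, adjusted p = 0.00126) to 0.827 times the IL-1β level. Ccne2 had a difference of -0.098 (SE 0.053) (adjusted p = 0.226), with its 3 co-culture libraries below the 3 IL-1β libraries. No D-type cyclin and no E2F factor passed, and Foxm1, at 17.5 ± 1.07 and 18.8 ± 0.764 FPKM, did not pass either (adjusted p = 0.213). Without co-culture replicate 2, the members lower in co-culture were 2 in place of 1, the added gene being Tyms (adjusted p = 0.0451).

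The third comparison set co-culture against control. It shares libraries with both others, so its calls are a description of where the co-cultured cells stood and not independent of the first 2. Of the 51 members 19 were higher and 8 lower, and 24 did not pass, where 33.9% of all tested genes were called, 21.8% higher and 12.2% lower. Rescaling moved this split to 15 higher and 13 lower with a common sum (1541 and 2009 of all genes), 15 and 14 with median-of-ratios scaling (1854 and 1869) and 15 and 14 with quantile normalization (1641 and 2076). In 19 members all 3 co-culture libraries lay above control and in 12 all below, where 29.6% and 17% of all tested genes did.

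Replication members made up 13 of the 19 higher calls. Of the 11 licensing and helicase genes 10 were higher, under each of the 4 scalings, with a median log2 difference of 0.27, and Orc6 was the exception. Cdc6 reached 28.5 ± 0.62 FPKM against 22.1 ± 1.22 in control (log2 difference 0.35, adjusted p = 0.000203), and Mcm6 128 ± 1.94 against 104 ± 1.79 (0.30, adjusted p = 1.49e-05). Pcna was at 1.24 times control (adjusted p = 8.39e-06). The other higher calls were Ccne1 (0.40), Ccne2 (0.31), Cdk2, Pttg1, Ttk and Birc5. The calls of Cdk2, Ttk and Birc5 were lost under all 3 scalings (adjusted p up to 0.424, 0.21 and 0.339), as was that of Rrm1 (up to 0.151). That of Cdk2 also ended without any 1 of the control and co-culture libraries (0.0648 to 0.0961) or IL-1β replicate 3 (0.0537). That of Ttk ended without any 1 control library (0.0638 to 0.0926) or co-culture replicate 2 (0.0842) or 3 (0.108). That of Birc5 ended without control replicate 1 (0.162) or 2 (0.0938), IL-1β replicate 2 (0.0654) or any 1 co-culture library (0.0624 to 0.153).

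Mitosis members made up 7 of the 8 lower calls: Plk1, Aurka, Cdc20, Ube2c, Kif11, Kif23 and Prc1, with log2 differences from -0.28 for Kif23 to -0.17 for Plk1. All 7 had been lower with IL-1β and higher in co-culture than with IL-1β, and all 7 kept the third call in 18 of 18 alternatives. The remaining lower call was Ccnd2 (-0.26). Another 13 members, Cenpa, Ccna2, Ccnb1, Cdk1, Bub1 and Mki67 among them, were lower with IL-1β, higher in co-culture than with IL-1β and not called against control, which does not show that they equalled it. Of the 13, Kif20a and Nusap1 were called lower than control in 4 of 18 alternatives, Tpx2 and Ccnb1 in 3 and Ccna2 in 2. Over the 26 mitosis members the median difference from control was -0.049 and over the 16 replication members 0.25. Within each co-culture library the replication median exceeded the mitosis median by 0.26 to 0.34, below the 0.39 to 0.47 of the IL-1β libraries.

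Genes of the same pathways outside the 51 are given by 5 further lists. Over all tested genes, 26.5% were higher and 20.2% lower with IL-1β. In co-culture 11.9% were higher and 10.1% lower than with IL-1β, and 21.8% higher and 12.2% lower than control. Of 44 other replication genes, such as polymerase, clamp loader and licensing genes, 13 were higher and 2 lower with IL-1β, with 7 and 6, 10 and 5, and 9 and 6 under the other scalings. The share of the 44 called higher with IL-1β was thus near that of all tested genes, and the share called lower was under it. The flap endonuclease Fen1, which trims Okazaki fragments, rose from 34.6 ± 0.651 to 46.7 ± 2.72 FPKM and stood at 47.4 ± 1.18 in co-culture, and the licensing inhibitor Gmnn was at 91.3 ± 2.23, 119 ± 0.818 and 118 ± 7.29. In co-culture 9 of the 44 were higher than with IL-1β and none lower, with the clamp loader subunit Rfc2 at 44.9 ± 1.44 and 51.4 ± 2.25. Against control, 25 were higher and none lower in co-culture, and 10, 14 and 12 under the other scalings.

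Of 68 other mitosis genes, 41 were lower and 4 higher with IL-1β, where 20.2% of all tested genes were lower and 26.5% higher. In co-culture 33 of the 68 were higher and none lower than with IL-1β, where 11.9% of all tested genes were higher and 10.1% lower. The phosphatase Cdc25b, which activates Cdk1, fell from 30.1 ± 0.79 to 18.8 ± 0.11 FPKM and stood at 21.7 ± 1.06 in co-culture. Racgap1, the partner of Kif23 in centralspindlin, was at 100.5 ± 0.179, 73.1 ± 2.64 and 92.5 ± 2.91, falling and then rising. Lamin B1 (Lmnb1), of the nuclear lamina, was at 68.3 ± 0.419, 53.7 ± 1.70 and 69.5 ± 2.05, and the chromatin protein Hmgb2 at 230.3 ± 1.72, 198 ± 5.78 and 249.8 ± 8.34. Against control 8 were higher and 9 lower in co-culture, and 2 and 17, 3 and 16, and 2 and 18 under the other scalings. Over all tested genes 21.8% were higher and 12.2% lower in that comparison, without rescaling. The smallest p of the list there was that of Cenpk, which was higher than control by 0.42 (adjusted p = 9.04e-06). Cdc25b was lower than control by 0.45 (adjusted p = 1.87e-05). The median difference of this list was -0.16 with IL-1β and 0.15 in co-culture against IL-1β.

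Of 16 genes of the anaphase-promoting complex, 3 were higher and 6 lower with IL-1β, or 1 and 8, 1 and 6, and 1 and 6 under the other scalings. Over all tested genes 26.5% were higher and 20.2% lower with IL-1β, without rescaling. Fzr1, which activates the complex in late mitosis and G1, fell from 34.5 ± 0.924 to 26.3 ± 1.08 FPKM. Of 17 retinoblastoma, E2F and DREAM genes, 5 were higher and none lower with IL-1β, or 4 and none, 5 and none, and 5 and 2 under the other scalings. The 5 of 17 called higher were near the share of all tested genes, 26.5%. The E2F-binding pocket protein genes Rb1 and Rbl2 rose, from 5.19 ± 0.338 to 6.83 ± 0.354 and from 4.10 ± 0.251 to 5.99 ± 0.137. Of 12 other G1 kinases and inhibitors of cyclin-dependent kinases, 2 were higher and 6 lower. The inhibitor Cdkn1a (p21) was at 138, 139 and 142 FPKM in control, 202, 194 and 193 with IL-1β and 123, 121 and 116 in co-culture. It rose by 0.49 with IL-1β and fell by 0.71 in co-culture against IL-1β, ending below control. A link between Cdkn1a and the changes of the members was not tested. The INK4 inhibitor Cdkn2c fell with IL-1β from 47.1 ± 1.22 to 32.8 ± 2.87 and was at 38.1 ± 0.63 in co-culture. In co-culture against IL-1β, 3 of the 16 complex genes, 1 of the 17 and 4 of the 12 were higher, and 1, none and 1 lower. Over all tested genes 11.9% were higher and 10.1% lower in that comparison.

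**Figure D4:**
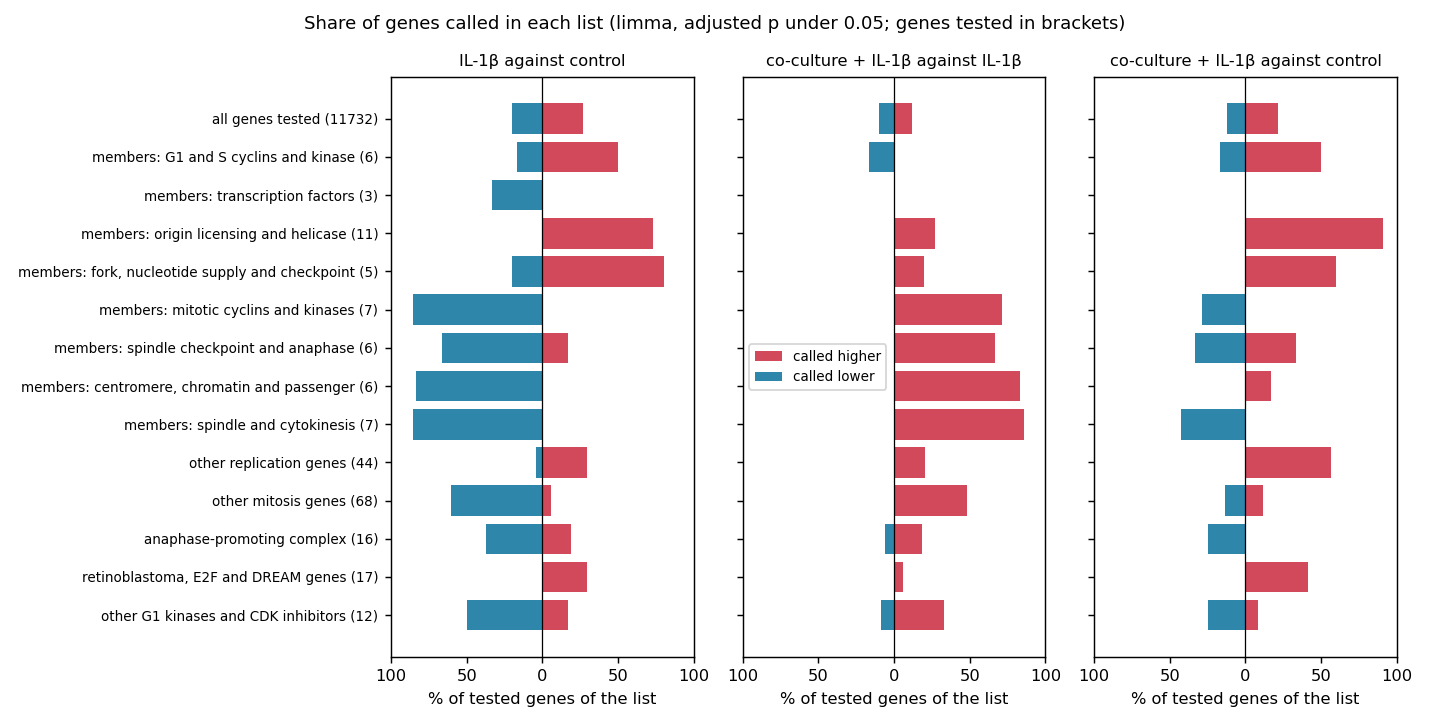
Share of tested genes (horizontal axes, %) called higher (red, right) or lower (blue, left) in each comparison, for all tested genes, the 8 roles of the members and the 5 further lists; the number tested is in brackets. Calls of the mitosis roles, other than that of Pttg1, lie to the left with IL-1β and to the right in co-culture against IL-1β, and those of the licensing and helicase role lie to the right in all 3 panels.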

How the data were processed

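Poly(A) RNA of 9 chondrocyte libraries was captured with oligo(dT) beads and reverse transcribed with random primers, per the labels' protocols, which do not say whether strand was kept. The authors deposited FPKM per gene and library in a single table of 17588 genes with 2 decimals, per the file headers. How reads were aligned and counted is not given in the sources used here. A mouse build, GRCm38, is named in the submitters' processing notes for these rat samples. A RefSeq table of the rat build GRCr8 held 93.2% of the gene identifiers, and all 51 members matched it by identifier and symbol. Reads of overlapping genes, antisense genes and near-identical copies could not be told apart.

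FPKM is not a count, so limma 3.58.1 (R 4.3.3) was fitted to log2(FPKM + 1), with a pseudocount of 1, in all 9 libraries with a mean-variance trend. Genes at 1 FPKM or more in at least 3 libraries were tested, two-sided, with Benjamini-Hochberg adjustment within each of 3 comparisons, and called at an adjusted p under 0.05. The log2(FPKM + 1) scale understates changes of low genes. A level given as times another is the ratio of the group means in FPKM. The test was checked on simulated data. Absolute depth is unknown, so no count test was run and no counting error can be given; 3 libraries a group set the precision. Groups come from the sample titles. The 51 members, their roles and the further lists were chosen with earlier results of these data known. Of the 51, values of every library are given for the 15 largest called differences with IL-1β and in co-culture and for all D-type and E-type cyclins, and up to 3 genes of each further list and comparison by smallest p could be named; further members with values of every library, and some named further genes' other values, were chosen after their values were seen. Of 74 further mitosis genes listed, 68 were tested. Promoters are RefSeq windows on GRCr8, 250 bases before to 50 after the start, searched with Python 3.11.15. Alternatives were pseudocount, filter, scaling (common sum, median-of-ratios, quantile), trend, replicate block, libraries fitted and leaving out each library.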

Additional observations from a re-analysis of the deposited data

How the results depend on the processing

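Over 18 alternatives, 27 of the 40 members called with IL-1β kept their call in all, as did 19 of 25 in co-culture against IL-1β and 23 of 27 in co-culture against control, and no called member changed sign. Members higher with IL-1β were 16, but 8 with a common sum and 9 with quantile normalization. Members lower in co-culture against IL-1β were 1, but 2 without co-culture replicate 2. Members lower in co-culture against control were 8, but 13 with a common sum, 14 with median-of-ratios scaling and 14 with quantile normalization, and genes higher over all tested were 2554, but 1541 with a common sum and 1641 with quantile normalization. A common sum and median-of-ratios scaling lower libraries given IL-1β relative to control by construction. The median-of-ratios factors were 0.9857 to 0.986 in control, 1.0014 to 1.0089 with IL-1β and 1.0075 to 1.0217 in co-culture. For the other settings the cause was not tested.

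With the replicate number as a block, 14 members were higher and 23 lower with IL-1β (2946 and 2255 of all genes). In co-culture they were 21 and 1 against IL-1β (1194 and 1072) and 16 and 8 against control (2370 and 1311). Deviations of libraries with the same number had correlations of -0.091 to 0.085 (median 0.021), none over 0.1, so the numbers were not taken to pair the libraries.

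Sign changes fell only on members not called, with adjusted p of at least 0.22. With a common sum, median-of-ratios and quantile scaling in turn, log2 differences turned to -0.054, -0.016 and -0.019 for Ccnd1, -0.049, -0.011 and -0.058 for Ccnd3 and -0.046, -0.013 and -0.051 for E2f8 with IL-1β, and to -0.049, -0.029 and -0.038 for Bub1b, -0.057, -0.036 and -0.053 for Ccnd1, -0.039, -0.019 and -0.040 for Ccnd3, -0.024, -0.0035 and -0.0080 for Kif2c and -0.055, -0.035 and -0.053 for Top2a in co-culture against control. With a common sum alone they turned to -0.022 (E2f1) and -0.025 (Mcm5) with IL-1β and to -0.0065 (E2f1) and -0.0088 (Mki67) against control, Ttk turned to -0.034 (common sum) and -0.0064 (quantile) with IL-1β, and in co-culture against IL-1β Ccnd3 turned to -0.0078 (median-of-ratios) and E2f1 to -0.0011 (median-of-ratios) and -0.0022 (quantile). Leaving out 1 library at a time, differences whose sign changed ranged with IL-1β -0.046 to 0.0019 for Aurkb, -0.0038 to 0.022 for Ccnd1, -0.025 to 0.043 for E2f8 and -0.037 to 0.0022 for Kif2c, in co-culture against IL-1β -0.018 to 0.020 for Ccnd1, -0.0089 to 0.096 for Ccnd2, -0.030 to 0.037 for Ccnd3, -0.058 to 0.011 for Cdk2, -0.021 to 0.059 for Cdt1, -0.051 to 0.053 for E2f1 and -0.0013 to 0.14 for Gins2, and in co-culture against control -0.072 to 0.0014 for Bub1, -0.025 to 0.060 for Bub1b, -0.057 to 0.027 for Ccnb2, -0.0064 to 0.032 for Ccnd1, -0.013 to 0.054 for Ccnd3, -0.031 to 0.0008 for Cdk1, -0.028 to 0.030 for Cenpf, -0.0091 to 0.094 for E2f1, -0.005 to 0.11 for Orc6, -0.035 to 0.008 for Rrm2 and -0.018 to 0.060 for Top2a.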
